A study of Mus musculus with 4 samples.

Results

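Costimulatory molecules are the surface proteins that signal to a T cell beside its antigen receptor. Described here are 10 such genes of the 32285 genes in the deposited table: the receptors Tnfrsf4, Tnfrsf18, Tnfrsf9, Cd27, Cd28 and Icos and the ligand Cd40lg, which are known from T cells, and Cd40, Cd80 and Cd86, which are known from antigen-presenting cells. They were chosen by name. Leukocytes (CD45+) were sorted by flow cytometry from orthotopic EO771 mammary tumors, a mouse mammary carcinoma line grown in the mammary gland, and were profiled by single-cell RNA sequencing. Of the 4 tumors, each from 1 female mouse, 2 came from Csf1rfl/fl mice, which carry floxed Csf1r and no Cre, and 2 from Lyve1CreCsf1rfl/fl mice, in which Cre driven by the Lyve1 promoter deletes Csf1r, the receptor for the macrophage growth factor CSF1, in cells that have used that promoter. The tumors were taken at a fixed size, and the age of the mice is not given in the sources used here. Each of 2 Chromium runs pooled 1 tumor of each genotype, and antibody hashtags told the tumors apart.

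In costimulation, CD28 on a T cell binds CD80 or CD86 on an antigen-presenting cell, and the inhibitory receptor CTLA-4 competes for the same ligands. ICOS is a related receptor that binds ICOSL. Receptors of the TNF receptor family signal through TRAF adaptor proteins to NF-kB. OX40 (Tnfrsf4) binds OX40L (Tnfsf4), GITR (Tnfrsf18) binds GITRL (Tnfsf18), 4-1BB (Tnfrsf9) binds 4-1BBL (Tnfsf9) and CD27 binds CD70. CD40 works in the other direction, since it licenses dendritic cells when T cells show them CD40L (Cd40lg).

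Levels are given as UMIs (unique molecular identifiers, counted transcripts) of a gene per 10000 UMIs of all genes in the cells of a type, summed within a tumor. The 4 tumors are given in the order Csf1rfl/fl run 1, Csf1rfl/fl run 2, Lyve1CreCsf1rfl/fl run 1 and Lyve1CreCsf1rfl/fl run 2, and errors are SDs over these 4 tumors. The authors kept 28429 cells, with a median of 3721 to 4657 UMIs per cell by tumor. They had removed, from every tumor, clusters made up almost only of cells of the Lyve1CreCsf1rfl/fl run 2 tumor. These were described as lymphocytes high in ribosomal genes, so T cell levels and genotype differences here describe the lymphocytes that were left. Gates on lineage transcripts, none of them a member, placed 17984 cells in a type, and 12 types had enough cells in each tumor. The 10445 cells left outside every gate, with Scrublet marking 28.2% of them as likely doublets, held a median over the tumors of 35.0% of the UMIs of Cd80 up to 62.0% of those of Cd40lg, so the values describe gated cells. The 2 runs shared 60 cell barcodes. In gated macrophages Csf1r stood at 2.27, 2.64, 2.22 and 2.01 UMIs per 10000 in the 4 tumors, and since Csf1r was among the transcripts of that gate and the 3' end of transcripts was read, this level does not report whether the floxed part of the gene was deleted. In monocytes, whose gate did not use Csf1r, it stood at 2.41, 2.36, 1.62 and 1.49, and in Cd209a dendritic cells at 0.990, 0.965, 0.470 and 0.559. Both Lyve1CreCsf1rfl/fl tumors were below both Csf1rfl/fl tumors in these types, and the differences of -0.63 ± 0.23 and -0.88 ± 0.33 on the log2 scale (SE) did not pass in edgeR without a block for run (adjusted p = 1 for each). Neutrophils, at 1.01, 0.956, 0.515 and 0.592, divided in the same way, and so did regulatory T cells, which are not known to use the gene, at 0.317, 0.360, 0.125 and 0.148 (-1.31 ± 0.30, adjusted p = 0.352).

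The gates were checked against defining transcripts. The 839 regulatory T cells, gated on Cd4 and Foxp3, had a mean level of 14.5 ± 1.99 for Ikzf2 and 4.05 ± 0.387 for Il2ra, neither of which was used by the gate. The 640 CD4 T cells without a Foxp3 UMI still had Ikzf2 at 9.65 ± 2.10 and Il2ra at 2.17 ± 0.399, so they are called Foxp3-negative CD4 T cells and not conventional CD4 T cells. The 2963 CD8 T cells ranged from 566 to 1154 per tumor. The 1456 mature dendritic cells were gated on Ccr7, Fscn1 and Ccl22, and any cell with a Cd3d, Cd3e or Cd3g UMI was left out of that gate, so the absence of these transcripts is no check of it.

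Several of these genes lie beside each other in the mouse genome (mm10, GENCODE vM21). Tnfrsf4 (chr4:156013843-156016612, plus strand) and Tnfrsf18 (chr4:156026164-156028895, plus strand) are 9551 bases apart, and Tnfrsf9 (chr4:150914562-150946102, plus strand) lies on the same chromosome. Cd28 (chr1:60716800-60773359) and Icos (chr1:60977927-61000320) flank Ctla4 (chr1:60887000-60915832), all on the plus strand. Cd86 (chr16:36603869-36666081, minus strand) and Cd80 (chr16:38455561-38496335, plus strand) share chromosome 16, whereas Cd40 (chr2:165055627-165072948, plus strand), Cd27 (chr6:125232622-125237010, minus strand) and Cd40lg (chrX:57212143-57224042, plus strand) stand alone.

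The 250 bases before the RefSeq transcription start (GRCm38.p6) are shown for the 3 TNF receptor genes that were high in both regulatory T cells and mature dendritic cells and for Cd80, a CD28 ligand with its highest level in mature dendritic cells. Each is written 5' to 3' on the gene's own strand, and capitals mark matches to AP-1 (TGANTCA), STAT (TTCNNNGAA), RUNX (TGTGGT), ETS (GGAAGT) letters or to the NF-kB consensus with its purine and pyrimidine positions, searched on both strands.
Tnfrsf4 (chr4:156013445-156013694): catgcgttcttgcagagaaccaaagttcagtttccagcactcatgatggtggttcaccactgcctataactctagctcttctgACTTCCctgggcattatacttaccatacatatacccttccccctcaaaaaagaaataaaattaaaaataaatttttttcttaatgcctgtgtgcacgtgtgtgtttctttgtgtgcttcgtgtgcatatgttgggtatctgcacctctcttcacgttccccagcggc
Tnfrsf18 (chr4:156026072-156026321): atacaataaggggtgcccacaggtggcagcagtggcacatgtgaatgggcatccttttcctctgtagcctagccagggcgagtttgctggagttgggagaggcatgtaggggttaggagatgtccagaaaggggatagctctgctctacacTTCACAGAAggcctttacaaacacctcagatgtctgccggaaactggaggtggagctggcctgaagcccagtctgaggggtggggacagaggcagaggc
Tnfrsf9 (chr4:150927749-150927998, the downstream of its 2 RefSeq starts): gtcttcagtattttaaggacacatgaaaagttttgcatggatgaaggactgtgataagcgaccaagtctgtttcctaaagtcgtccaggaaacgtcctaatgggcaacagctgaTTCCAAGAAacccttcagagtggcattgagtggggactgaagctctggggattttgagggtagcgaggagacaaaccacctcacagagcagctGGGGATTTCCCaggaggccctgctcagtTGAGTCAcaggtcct
Cd80 (chr16:38458683-38458932): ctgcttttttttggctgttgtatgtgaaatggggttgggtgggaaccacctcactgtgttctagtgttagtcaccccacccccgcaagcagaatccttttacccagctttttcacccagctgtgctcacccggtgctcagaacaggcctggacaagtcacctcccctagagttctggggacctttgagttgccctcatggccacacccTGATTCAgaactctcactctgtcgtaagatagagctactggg
The Tnfrsf4 window held an ETS match on the reverse strand at -167, the Tnfrsf18 window a STAT match at -99, the Tnfrsf9 window a STAT match at -136, overlapping NF-kB matches at -43 and -42 and an AP-1 match at -15, and the Cd80 window an AP-1 match at -42, counted from the start site. The window of the upstream Tnfrsf9 start (chr4:150919905-150920154) held 0 matches. Of 32851 mouse promoter windows of this length, 6.75% held the AP-1 letters, 7.02% the STAT letters, 14.1% the RUNX letters, 19.7% the ETS letters and 7.25% the NF-kB consensus. The neighbours Tnfrsf4 and Tnfrsf18 shared no match in these windows, and a match describes letters only. By the GENCODE spans given above, the Tnfrsf9 and Cd80 windows lie inside the genes and the Tnfrsf18 window overlaps the start of its gene. Only the Tnfrsf4 window lies wholly before its gene in both annotations.

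The TNF receptor genes Tnfrsf4, Tnfrsf18 and Tnfrsf9 and the CD28 relative Icos were highest in regulatory T cells, Cd27 in CD8 T cells, Cd28 at like levels in both CD4 gates, Cd40lg in Foxp3-negative CD4 T cells, and Cd80, Cd86 and Cd40 in mature dendritic cells. Transcripts were not limited to the cells these genes are best known from: Tnfrsf4, Tnfrsf18 and Tnfrsf9 were also read in mature dendritic cells, and Cd80 in neutrophils. These positions are laid out in the plot of mean levels by cell type.

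**Figure D1:**
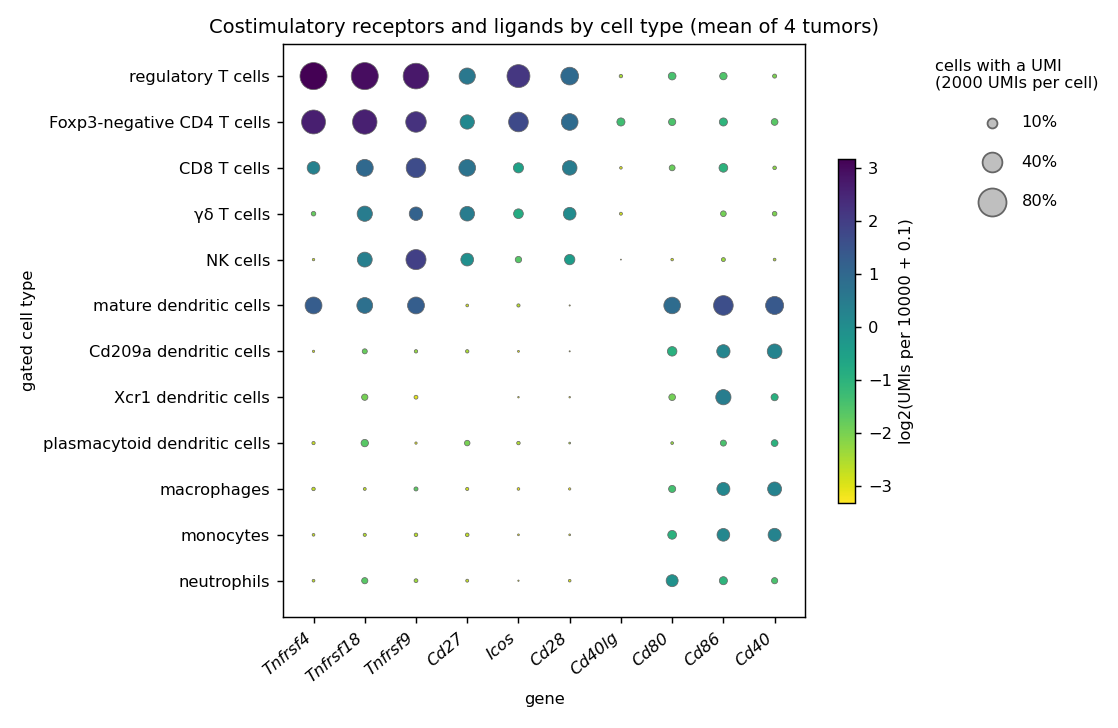
Each of the 10 genes (columns) in the 12 gated cell types (rows), where color gives log2 of the mean level over 4 tumors (UMIs per 10000, plus 0.1) and dot area the mean share of cells with a UMI after thinning to 2000 UMIs per cell. Tnfrsf4 reads 8.99 UMIs per 10000 in regulatory T cells and 2.34 in mature dendritic cells, and Cd86 reads 3.04 in mature dendritic cells.

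Tnfrsf4, which encodes OX40, a receptor that prolongs the survival of activated T cells, was read at 11.3, 7.81, 10.3 and 6.51 UMIs per 10000 in regulatory T cells of the 4 tumors. In Foxp3-negative CD4 T cells it was read at 6.86, 5.82, 8.22 and 3.69, and in CD8 T cells at 1.06, 1.17, 1.33 and 1.14. Both run 1 tumors were above both run 2 tumors in regulatory T cells, and no regulatory T cell value came near a CD8 value. Of regulatory T cells 90.4% held a Tnfrsf4 UMI (mean of 4 tumors), and 75.1% did after each cell was thinned to 2000 UMIs. Among neutrophils, taken as a reference, 1.17% to 1.55% of cells held a UMI at a median of 2188 UMIs per cell, against 4384 in regulatory T cells. The 31.7% to 33.5% of CD8 T cells with a UMI stood above this reference share. NK cells, with 1.21% to 2.66%, did not stand clearly above it.

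Tnfrsf18, which encodes GITR, followed the same order of T cells. It was read at 9.56, 6.74, 8.92 and 5.70 in regulatory T cells, at 7.19, 5.82, 7.27 and 3.60 in Foxp3-negative CD4 T cells and at 1.77, 1.69, 2.50 and 1.62 in CD8 T cells. NK cells held 0.994 to 1.46 and gamma delta T cells 0.940 to 1.74, ranges that overlapped each other and that of mature dendritic cells (1.34 to 1.94), and of them gamma delta T cells overlapped CD8 T cells. In this gene too the run 1 tumors exceeded the run 2 tumors in regulatory T cells.

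Tnfrsf9, which encodes 4-1BB, a receptor induced after activation of T and NK cells, was read in each lymphocyte type. It stood at 6.24, 7.08, 7.02 and 6.34 in regulatory T cells, at 4.77, 5.58, 5.40 and 3.03 in Foxp3-negative CD4 T cells, and at 3.66, 3.31, 3.82 and 4.26 in NK cells. CD8 T cells held 2.43, 3.71, 3.22 and 3.20. Regulatory T cells did not overlap any other type, whereas Foxp3-negative CD4 T cells, NK cells, CD8 T cells and mature dendritic cells overlapped each neighbour in the order of their means. The plot of T cell values by tumor sets these 3 genes beside the rest.

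**Figure D2:**
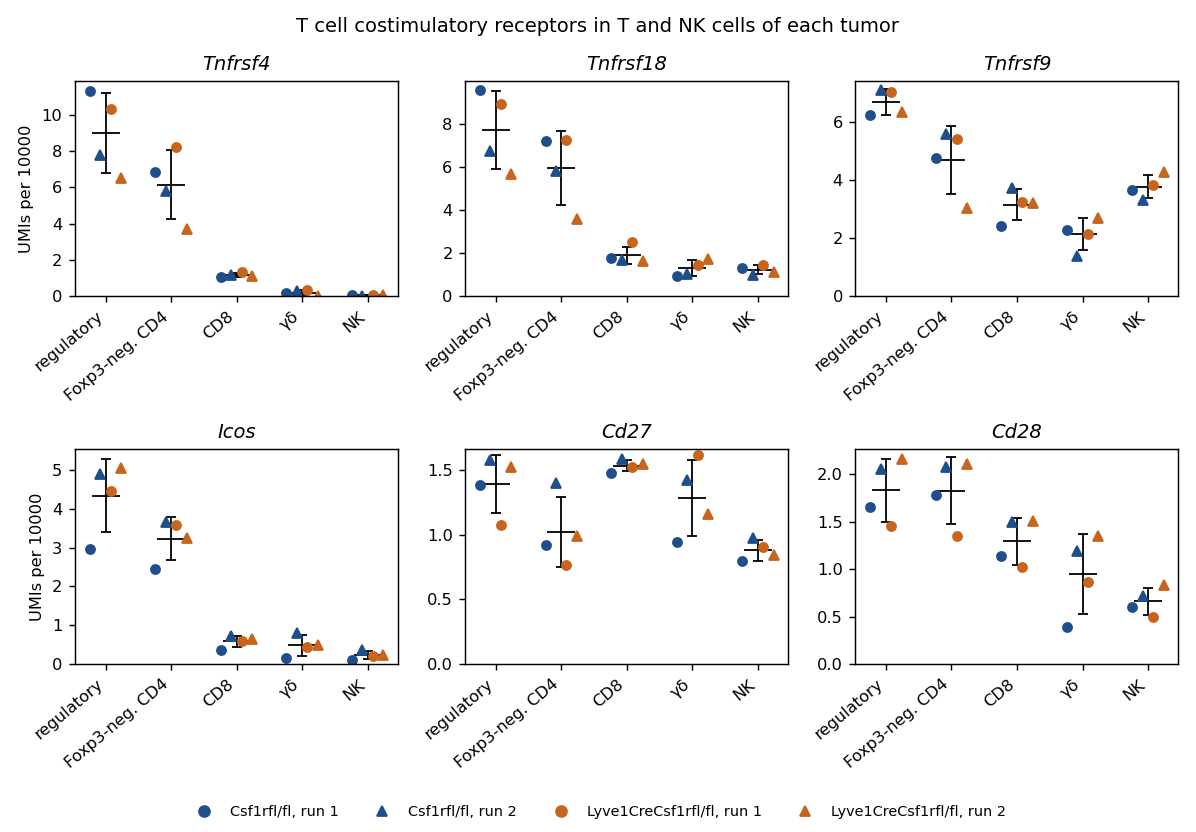
Level (UMIs per 10000) of 6 receptor genes in each of the 4 tumors (points, colored by genotype, shaped by run) for regulatory, Foxp3-negative CD4, CD8 and gamma delta T cells and NK cells, with the mean and SD (bars) and a separate linear axis for each gene. Tnfrsf4 in regulatory T cells spans 6.51 to 11.3 and in CD8 T cells 1.06 to 1.33.

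Icos, the inducible CD28 relative, was read at 2.97, 4.89, 4.46 and 5.04 in regulatory T cells and at 0.371, 0.721, 0.584 and 0.653 in CD8 T cells. Foxp3-negative CD4 T cells lay between, at 2.45, 3.66, 3.59 and 3.25, lower than the regulatory T cells of the same tumor in 4 of 4 tumors although the ranges overlapped. Cd28, the receptor of the first costimulatory signal, did not separate the CD4 gates: it was read at 1.66, 2.05, 1.45 and 2.17 in regulatory T cells and averaged 1.83 ± 0.334 there and 1.83 ± 0.351 in Foxp3-negative CD4 T cells. CD8 T cells averaged 1.29 ± 0.249 and NK cells 0.662 ± 0.145.

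Cd27, a receptor of resting and early memory T cells that binds CD70, was the only member whose mean was highest in CD8 T cells, where it was read at 1.48, 1.58, 1.53 and 1.54. Regulatory T cells (1.07 to 1.57) and gamma delta T cells (0.940 to 1.62) overlapped this range. Cd40lg, the ligand with which helper T cells signal to CD40, was scarce: Foxp3-negative CD4 T cells held 0.253, 0.311, 0.280 and 0.347, and 9.94% to 13.0% of them had a UMI. Regulatory T cells held 0.0692 to 0.104 and CD8 T cells 0.00988 to 0.0401. No Cd40lg UMI was counted in 2827 monocytes or 1456 mature dendritic cells, which allows shares of cells with a UMI of up to 0.106% and 0.206%. Such limits cover counting error only.

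Regulatory T cells were first set against CD8 T cells of the same tumors in edgeR, with tumor as a block, to ask which receptors set them apart. Tnfrsf4 was higher by 2.81 ± 0.10 on the log2 scale (SE, adjusted p = 2.94e-13), Icos by 2.80 ± 0.08 (9.00e-15) and Tnfrsf18 by 1.91 ± 0.08 (5.27e-12). Tnfrsf9 followed at 0.99 ± 0.07 (1.81e-09). In all, 7 of the 10 members were higher and 1 was lower, where 23.9% of the 9880 genes tested were called in either direction and 11.8% as higher. The other higher members were Cd40lg (1.40 ± 0.36, adjusted p = 0.00701), Cd28 (0.39 ± 0.08, 0.000656) and Cd80 (0.49 ± 0.17, 0.0381), the last lost under 7 of 11 other settings and Cd40lg in DESeq2 and without the Lyve1CreCsf1rfl/fl run 1 tumor. The call of Cd28 was also lost without the tumor block and under a stricter gate, which asked for more UMIs of a type's own markers and allowed fewer of other lineages. Cd86 was lower by 0.84 (SE 0.16, 0.000431), a call lost under the stricter gate, and Cd27 at -0.26 ± 0.09 missed the threshold (adjusted p = 0.0522). Cd40lg had passed the filter on low counts through regulatory T cells, so its levels and not its call are the result. The median over the members was 0.74.

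Against Foxp3-negative CD4 T cells the differences were smaller. Tnfrsf4 was higher in regulatory T cells by 0.53 ± 0.08 (adjusted p = 2.42e-05), Tnfrsf9 by 0.50 ± 0.09 (0.000392), Icos by 0.38 ± 0.08 (0.00206) and Tnfrsf18 by 0.35 ± 0.07 (0.0015). Cd40lg moved the other way, at -1.90 ± 0.27 (2.57e-05). It had passed the filter on low counts only through the Foxp3-negative cells, so its levels and not its call are the result. With Cd27 higher (0.42 ± 0.12, 0.0167) and Cd86 lower (-0.64 ± 0.19, 0.0286), 5 members were higher and 2 lower of 10, where 11.7% of all 7384 genes were called, 4.90% as higher and 6.83% as lower, and the fit without the tumor block called 1. The calls of Cd27 and Cd86 were lost under 7 of 12 and 6 of 11 other settings, among them DESeq2 and leaving out either run 1 tumor. Under the stricter gate those of Tnfrsf9, Tnfrsf18 and Icos were lost as well. Cd28, at -0.03 ± 0.09, did not pass (adjusted p = 0.909).

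Since Ikzf2 and Il2ra were present in the Foxp3-negative gate, the contrast was repeated with the 155 cells of that gate that held neither. In them Cd40lg was read at 0.534, 0.847, 0.700 and 0.591 and Tnfrsf9 at 0.961, 1.69, 0.980 and 0.512. The difference from regulatory T cells widened to 2.73 ± 0.22 on the log2 scale for Tnfrsf9, 1.95 ± 0.16 for Tnfrsf4, 1.54 ± 0.25 for Cd27, 1.18 ± 0.15 for Tnfrsf18 and 1.10 ± 0.17 for Icos, and to -3.11 ± 0.37 for Cd40lg. The 7 calls were kept, and Cd28 again did not pass (-0.38 ± 0.18, adjusted p = 0.21). Cells with Il2ra or Ikzf2 were left out on the Foxp3-negative side only, and over the cell types Il2ra was among the genes nearest to Tnfrsf4 and Tnfrsf18. The choice of cells could by itself widen these differences, which was not tested, so the kept calls are no separate support.

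CD8 T cells and NK cells, the cytotoxic lymphocytes of these tumors, were compared next. Tnfrsf4 was higher in CD8 T cells by 4.55 ± 0.19 (adjusted p = 7.73e-10), with NK cells at 0.0273 to 0.0717. Icos was higher by 1.33 ± 0.14 (6.62e-06), Cd28 by 0.91 ± 0.09 (5.41e-06), Cd27 by 0.75 ± 0.09 (2.00e-05) and Tnfrsf18 by 0.56 ± 0.09 (0.000411). Tnfrsf9 was lower in CD8 T cells, at -0.33 ± 0.11 (0.0344), a call lost under 6 of 11 other settings, and the call of Tnfrsf18 was lost without the tumor block. Including Cd80, Cd86 and Cd40, 8 of 9 members tested were higher and 1 lower, where 24.6% of 9972 genes were called and 11.3% as higher. Tnfrsf4 had passed the filter on low counts through CD8 T cells, so its levels and not its call are the result, and the count of 8 includes it. The call of Cd40 was lost under 6 of 10 other settings. Cd80 and Cd86 were low in both types, at 0.180 ± 0.0378 and 0.405 ± 0.0476 in CD8 T cells, and their calls were kept under all 11 other settings. Csf1r was read at 0.353, 0.226, 0.141 and 0.168 in CD8 T cells and at 0.139, 0.186, 0.128 and 0.0748 in NK cells. Scrublet marked 14.8% of CD8 T cells and 7.25% of NK cells as doublets. The part of RNA from other cells in the calls of Cd80, Cd86 and Cd40 was not tested.

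Dendritic cells carried the presenting side of the pathway. Cd86, a ligand of CD28 and CTLA-4, was read at 2.83, 3.07, 2.75 and 3.49 in mature dendritic cells, against 0.894 to 1.21 in Cd209a dendritic cells and 1.03 to 1.43 in Xcr1 dendritic cells. Cd40, the receptor through which T cells license these cells, was read at 2.38, 2.69, 2.06 and 2.98, and Cd80, the other ligand of CD28, at 1.25, 2.19, 1.38 and 2.28. By level, the mature cells did not overlap either other subset for any of these 3 genes, and in them run 2 tumors were higher than run 1 tumors for all 3. Counted per cell, Cd86 did not separate mature from Xcr1 dendritic cells, which held more UMIs of all genes (median 11206 against 4631). Mature cells held 1.43 to 1.743 Cd86 UMIs per cell by tumor and Xcr1 dendritic cells 1.255 to 2.024.

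Mature dendritic cells also held the TNF receptor transcripts. Tnfrsf4 was read in them at 3.01, 2.10, 2.22 and 2.04, Tnfrsf9 at 1.67, 2.35, 2.31 and 2.96, and Tnfrsf18 at 1.94, 1.70, 1.67 and 1.34. Tnfrsf4 UMIs were found in 39.3% to 56.7% of these cells, and in 24.4% to 36.5% after thinning to 2000 UMIs. Of T cell transcripts that this gate did not use, Foxp3 stood in these cells at 0 to 0.0115, Cd4 at 0 to 0.0172, Ikzf2 at 0.0115 to 0.0825 and Icos at 0.0266 to 0.102. Il2ra, which mature dendritic cells are known to make, stood at 1.14 to 1.90. In Xcr1 dendritic cells, with a median of 11206 UMIs per cell, a single Tnfrsf4 UMI and 5 Tnfrsf9 UMIs were counted in 210 cells.

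Set against Cd209a dendritic cells, the 6 members tested were each called higher in mature dendritic cells, where 59.4% of 7407 genes were called and 31.2% as higher. Tnfrsf4 and Tnfrsf9 had passed the filter on low counts through the mature cells and the 4 other members had not passed it, so the values and not their number are the result. The differences on the log2 scale were 5.63 ± 0.25 for Tnfrsf4 (adjusted p = 1.20e-13), 4.63 ± 0.21 for Tnfrsf9 (1.33e-13) and 3.34 ± 0.20 for Tnfrsf18 (1.20e-11). For Cd80 the difference was 2.33 ± 0.16 (7.09e-11), for Cd86 1.78 ± 0.12 (4.05e-11) and for Cd40 1.46 ± 0.12 (2.85e-09). Against Xcr1 dendritic cells the same 6 were tested and called higher, with the same limit, where 65.1% of 7233 genes were called, 35.1% as higher and 29.9% as lower. There Cd80 was higher by 4.18 ± 0.26 (2.00e-13), Tnfrsf18 by 3.66 ± 0.18 (3.32e-15), Cd40 by 2.88 ± 0.16 (3.23e-14) and Cd86 by 1.43 ± 0.13 (2.67e-10). For the scarce pair the pooled ratio was 619 for Tnfrsf4 (95% interval 111 to 2.45e+04) and 120 for Tnfrsf9 (51.3 to 370.1), intervals that cover counting error only. Each of these calls was kept under every other setting that could be run.

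**Figure D3:**
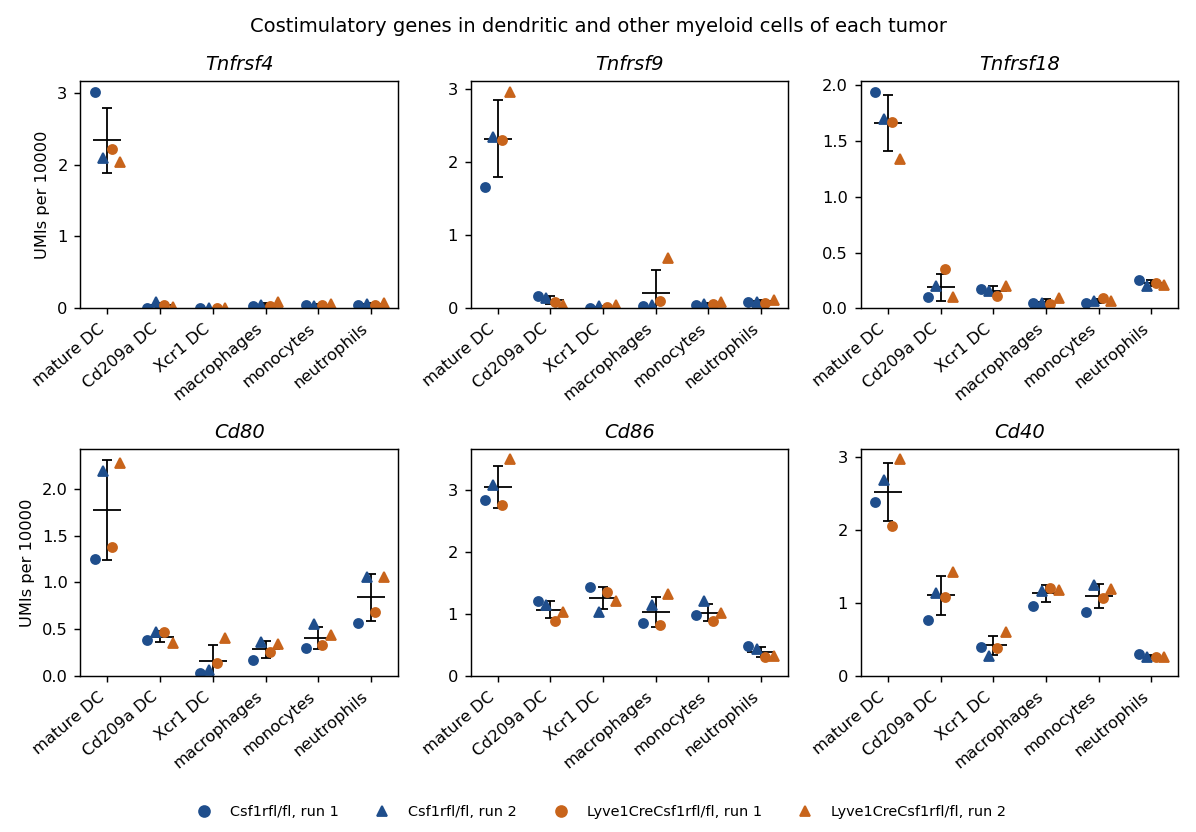
Level (UMIs per 10000) of 6 genes in each of the 4 tumors (points, colored by genotype, shaped by run) for 3 dendritic cell subsets, macrophages, monocytes and neutrophils, with the mean and SD (bars) and a separate linear axis for each gene. Cd86 in mature dendritic cells spans 2.75 to 3.49, above each other type shown.

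Outside dendritic cells the presenting genes were spread unevenly. Cd80 was read in neutrophils at 0.567, 1.06, 0.687 and 1.05, by level above Cd209a dendritic cells (0.352 to 0.475) in 4 of 4 tumors. Neutrophils had a median of 2188 UMIs of all genes per cell and Cd209a dendritic cells 6350, so this order does not show more Cd80 UMIs per neutrophil. Of neutrophils, 17.2% to 20.3% held a Cd80 UMI. NK cells, in which Cd80 is not known, had 1.06% to 2.18% of cells with a UMI at a median of 3903 UMIs per cell, so the neutrophil share stood above background although the neutrophils were shallower. Cd86 was similar in macrophages (0.819 to 1.32), monocytes (0.887 to 1.21) and Cd209a dendritic cells, and Cd40 likewise (0.968 to 1.21 in macrophages, 0.873 to 1.26 in monocytes). Between macrophages and monocytes 1 of 6 members was called, where 26.4% of 8735 genes were and 14.1% as lower: Cd80 was lower in macrophages by 0.66 (SE 0.15, adjusted p = 0.00286), a call lost without the tumor block and under the stricter gate. Cd86, at -0.11 ± 0.11, and Cd40, at -0.02 ± 0.09, did not pass.

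The partners of these receptors were not read in the same way. Tnfsf18, the GITR ligand, was almost unread: 13 UMIs were counted in all 28429 kept cells, and 0 in T cells, NK cells and mature dendritic cells. Tnfsf4, the OX40 ligand, had 697 UMIs in CD8 T cells and 1 in regulatory T cells, a pooled ratio of 191 (95% interval 34.1 to 7539). In mature dendritic cells Tnfsf4 stood at 0.436 and was at least 39.5-fold higher than in Xcr1 dendritic cells, where it had 0 UMIs and the limit of 3 counts was used.

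Cd70, the CD27 ligand, followed the same pattern among dendritic cells, with 396 UMIs in mature cells and 0 in the other 2 subsets, at least 49.9-fold above Cd209a and 45.7-fold above Xcr1 dendritic cells. It was also read in Foxp3-negative CD4 T cells at 0.409 ± 0.211 and in regulatory T cells at 0.297 ± 0.137. Tnfsf9, the 4-1BB ligand, averaged 0.494 ± 0.0946 in mature and 0.422 ± 0.177 in Cd209a dendritic cells, and Icosl 0.837 ± 0.183 and 0.818 ± 0.229, ranges that overlapped. The fit, which scales totals by TMM, called both higher in mature cells (Tnfsf9 by 0.55 ± 0.17, adjusted p = 0.00749, and Icosl by 0.37 ± 0.14, 0.0304), whereas per 10000 UMIs each was higher in 3 of 4 tumors. In Xcr1 dendritic cells both were lower, Tnfsf9 at 0.0882 and Icosl at 0.304, and mature cells exceeded them by 2.71 ± 0.30 (1.40e-08) and 1.69 ± 0.17 (2.56e-09). Ctla4, the competitor of Cd28, was at 4.79 in regulatory T cells, 3.36 in Foxp3-negative CD4 T cells and 0.762 in CD8 T cells, a difference from CD8 T cells of 2.60 ± 0.13 (3.99e-11).

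Other genes of the pathway were counted from lists chosen with earlier results known. Of 8 ligands, which include the members Cd80, Cd86 and Cd40lg, 6 were tested in mature against Cd209a dendritic cells and called higher, but Cd70 and Tnfsf4 passed the filter on low counts only through the mature cells, so this count supports nothing by itself. Of 24 signalling adaptors, 21 were tested in that contrast, and 16 were higher and 3 lower, with a median of 1.51 on the log2 scale. Over all genes tested in this contrast 31.2% were higher and 28.2% lower, with a median of 0.04. Birc2, which encodes a ubiquitin ligase bound to TRAF proteins, was higher by 4.08 ± 0.14 (adjusted p = 1.94e-15), the NF-kB subunit gene Relb by 3.56 ± 0.13 (4.45e-15) and the kinase subunit gene Pik3r1 by 2.80 ± 0.13 (2.94e-13). Of 10 maturation genes 10 were higher, but Ccr7, Fscn1 and Ccl22 had been used by the gate.

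In regulatory against CD8 T cells, 8 of 12 other costimulatory receptor genes tested were higher and 3 lower (median 0.79), where 11.8% of all genes were higher and 12.1% lower (median -0.02), with Tnfrsf8 (CD30) at 3.40 ± 0.24 (adjusted p = 3.75e-09) and Cd226 at -2.90 ± 0.12 (3.13e-12). Coinhibitory receptor genes were divided, with 2 of 8 higher and 4 lower (median -0.81), Ctla4 against Cd160 (-5.46 ± 0.25, 6.48e-12) and Cd96 (-2.21 ± 0.14, 1.13e-09). Adaptor genes were divided too, with 9 of 24 higher and 6 lower (median 0.18). In CD8 T against NK cells, coinhibitory genes were higher in 7 of 8 (median 1.99), where 11.3% of all genes were higher (median 0.0040), among them Pdcd1 (PD-1) at 4.35 ± 0.21 (4.80e-09).

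Whether the receptors occur in the same cells was read after thinning each cell to 2000 UMIs. CD8 T cells with a Tnfrsf9 UMI held Tnfrsf4 in 17.0% to 25.1% of cells, against 7.84% to 16.1% of those without, higher in 4 of 4 tumors. Tnfrsf18 was found in 31.1% to 37.2% against 22.7% to 29.2%, again in 4 of 4 tumors, whereas Cd28 was higher in 2 of 4. In regulatory T cells with a Tnfrsf4 UMI, 70.2% to 90.1% held Tnfrsf18, against 59.7% to 69.2% of those without. In mature dendritic cells the same pair gave 25.0% to 46.6% against 17.6% to 25.3%, higher in 4 of 4 tumors. The other pairs examined in these cells were divided: Tnfrsf9 was found more often with Tnfrsf4, and Cd80 with Tnfrsf9, in 3 of 4 tumors, and Cd86 with Cd80 and Cd40 with Tnfrsf4 in 2 of 4. Cd27 and Icos were more frequent with Tnfrsf9 in 4 of 4 tumors in regulatory T cells and in 3 of 4 in CD8 T cells. With 4 pairs the smallest two-sided exact permutation p is 0.125, so these shares were not tested.

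Across the 12 types the genes fell into like patterns, described by Pearson's r of log2(level + 0.1) over type means, which share their 4 tumors and 2 runs. Cd27 and Cd28 gave r = 0.98, Tnfrsf9 and Tnfrsf18 0.93, Cd86 and Cd40 0.902, and Tnfrsf4 and Tnfrsf18 0.895. Among 4919 genes the nearest to Tnfrsf4 were Ikzf4 (0.982), Il2ra (0.950) and Slamf1 (0.948), the nearest to Icos was Ctla4 (0.989), and the nearest to Tnfrsf9 was Rhof (0.972). Tnfrsf18 was nearest to Il2ra (0.955), Cd27 to Ikzf3 (0.992), Cd28 to Cd2 (0.993) and Cd40lg to Penk (0.899). For Cd80 the nearest gene was Dennd5a (0.949), for Cd86 Tmem131 (0.928) and for Cd40 Grk3 (0.975).

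Cycling T cells, with at least 2 UMIs of 6 cell cycle genes, were compared with cells that had none. Among regulatory T cells, 327 were cycling, at a median of 8019 UMIs per cell, and 371 were not, at 2797. Per 10000 UMIs, 8 of 8 members tested were lower in cycling regulatory T cells, where 42.8% of 5555 genes were called and 19.5% as lower. Cd27 differed by -1.30 ± 0.15 (adjusted p = 2.51e-07), Tnfrsf9 by -0.87 ± 0.09 (7.90e-08), Tnfrsf18 by -0.85 ± 0.09 (8.85e-08), Tnfrsf4 by -0.46 ± 0.10 (0.000462) and Icos by -0.46 ± 0.11 (0.00103). Cd28, Cd80 and Cd86 were lower by 0.45, 0.82 and 1.07, each of them lost in DESeq2. Their calls were also lost when single tumors were left out: Cd28 without Lyve1CreCsf1rfl/fl run 1 or Csf1rfl/fl run 2, Cd80 without either Csf1rfl/fl tumor or Lyve1CreCsf1rfl/fl run 2, and Cd86 without either run 1 tumor. The calls of Tnfrsf4, Icos and Cd28 were lost without the tumor block, and those of Cd28 and Cd80 with no filter on low counts. Per cell the direction was the other way: a cycling regulatory T cell held 7.38 ± 1.62 Tnfrsf4 UMIs against 4.12 ± 1.18, more in 4 of 4 tumors, and 0.839 ± 0.213 Cd27 UMIs against 0.810 ± 0.107, more in 2 of 4. A fall in the share of a cell's UMIs and a rise in UMIs per cell are both given, since the cycling cells held more UMIs of all genes.

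Among CD8 T cells, 1058 cycling cells (median 7670 UMIs) stood against 1463 (3757). Of 9 members tested 5 were lower and 1 higher, where 35.3% of 9225 genes were called, 17.2% as lower and 18.1% as higher, and DESeq2 called 1. Cd27 was lower by 0.49 (SE 0.09, adjusted p = 0.000272), the only member kept under all 11 other settings. Cd86 (-0.55 ± 0.13, 0.00236), Cd40 (-0.70 ± 0.23, 0.0213), Icos (-0.37 ± 0.11, 0.0158) and Cd28 (-0.25 ± 0.09, 0.0265) were also lower. Tnfrsf9 was higher by 0.23 ± 0.09 (0.0479), lost under 8 of 11 settings and at -0.0094 under the stricter gate. Per cell, Tnfrsf9 was read at 3.01 ± 0.550 UMIs in cycling and 1.28 ± 0.351 in non-cycling CD8 T cells, and each of the 10 members was higher per cell in 4 of 4 tumors. Of the adaptor genes 16 of 24 were lower per 10000 UMIs in cycling CD8 T cells and 0 higher.

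**Figure D4:**
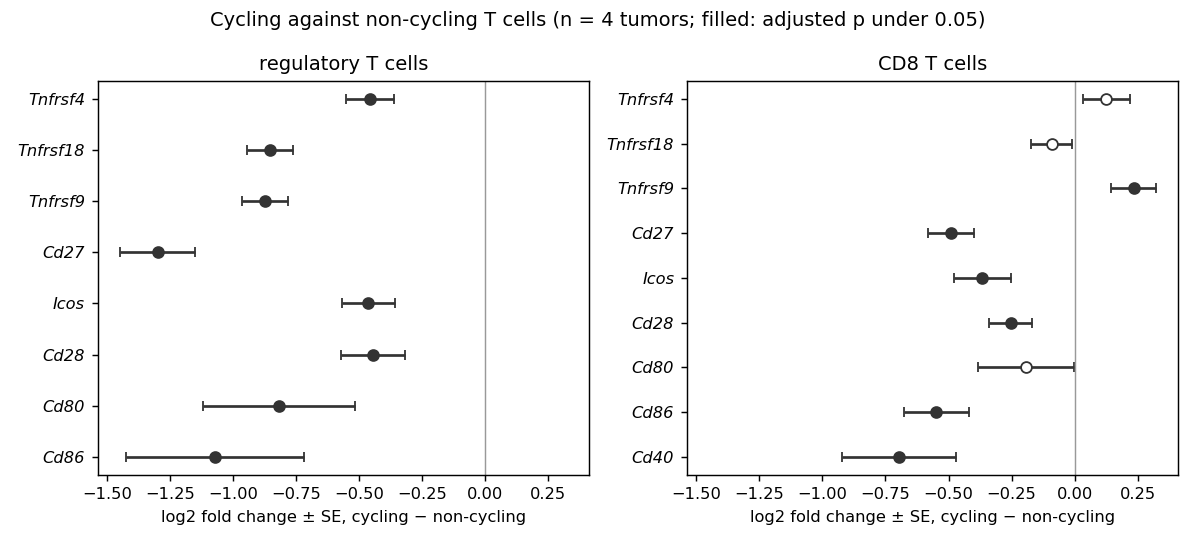
Fitted log2 difference per 10000 UMIs between cycling and non-cycling cells (points, with SE bars, n = 4 tumors) for the members tested in regulatory and in CD8 T cells, filled where the adjusted p of edgeR was under 0.05. All 8 members in regulatory T cells lie below 0, with Cd27 at -1.30, and Tnfrsf9 in CD8 T cells lies at 0.23.

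Genotypes were then compared to ask whether Lyve1Cre-driven loss of Csf1r changed costimulatory transcripts in tumor leukocytes. At an adjusted p of 0.05 in edgeR, 0 of 75 tests of members over the 12 types were called without a block for run, and 1, Tnfrsf9 in macrophages, with it. An unadjusted p under 0.05 was found in 2 tests without and 9 with the block, and DESeq2 called 0. Over all genes, the fit without the block called 0.0233% in regulatory T cells, 0.0541% in Cd209a dendritic cells, 0.0189% in Xcr1 dendritic cells and 0 in the other 9 types. No share over all genes is given for the fit with the block, so its 1 call and 9 low p-values cannot be set against one. The fold changes (Lyve1CreCsf1rfl/fl over Csf1rfl/fl) had a median of 0.082 on the log2 scale, and 65 of 75 lay within 0.5 of 0. The plot of genotype differences shows those of 3 types.

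**Figure D5:**
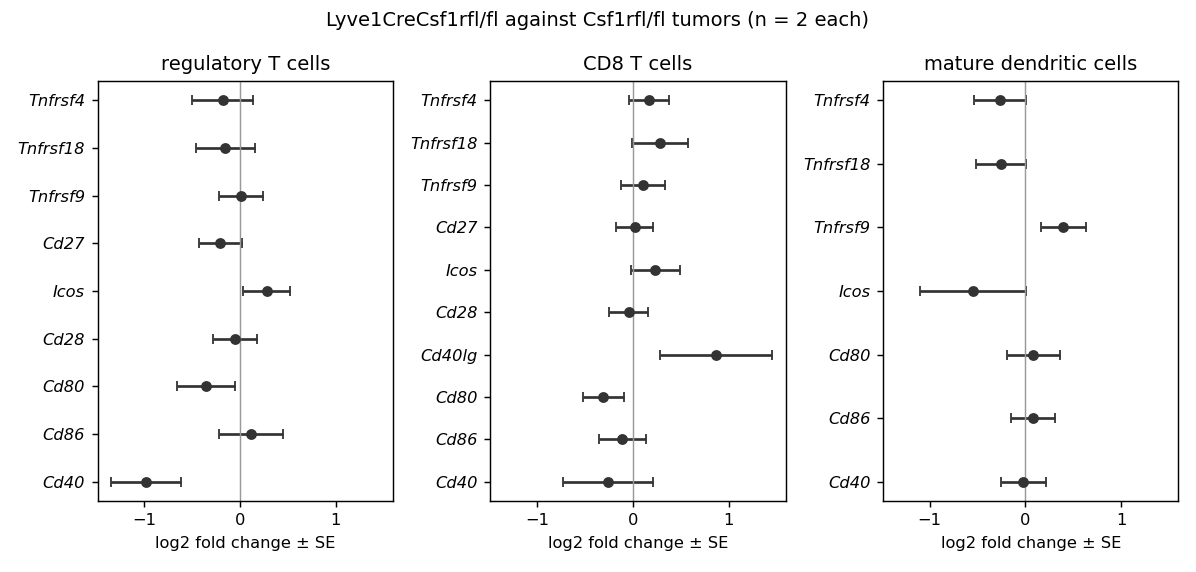
Fitted log2 difference between genotypes (Lyve1CreCsf1rfl/fl minus Csf1rfl/fl, 2 tumors each) with SE bars for the members tested in regulatory T cells, CD8 T cells and mature dendritic cells. None passed the threshold, and the points farthest from 0 are Cd40 in regulatory T cells at -0.98 and Cd40lg in CD8 T cells at 0.87.

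In regulatory T cells the genotype difference was -0.18 ± 0.32 for Tnfrsf4, 0.01 ± 0.23 for Tnfrsf9, -0.15 ± 0.31 for Tnfrsf18 and 0.28 ± 0.25 for Icos (SE, adjusted p = 0.999 for each). It was -0.20 ± 0.22 for Cd27 and -0.05 ± 0.23 for Cd28. In CD8 T cells it was 0.17 ± 0.21 for Tnfrsf4, 0.10 ± 0.23 for Tnfrsf9, 0.28 ± 0.29 for Tnfrsf18, 0.23 ± 0.25 for Icos, 0.02 ± 0.19 for Cd27 and -0.04 ± 0.20 for Cd28 (adjusted p = 1 for each), and Cd40lg stood at 0.87 ± 0.59. Cd40lg in Foxp3-negative CD4 T cells differed by 0.17 ± 0.34. In mature dendritic cells Cd80 differed by 0.08 ± 0.28, Cd86 by 0.08 ± 0.23 and Cd40 by -0.02 ± 0.24. With run as a block the errors were smaller, apart from that of Cd40lg in Foxp3-negative CD4 T cells, which was alike (0.34). None of the differences in this paragraph passed: Tnfrsf4 in regulatory T cells was then at -0.20 ± 0.08 and Icos at 0.30 ± 0.11 (edgeR, unadjusted p = 0.0194 and 0.00859, adjusted p = 0.439 and 0.294).

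The 2 tests with an unadjusted p under 0.05 were of low levels. Cd40 in regulatory T cells was read at 0.153, 0.226, 0.0969 and 0.0989 and differed by -0.98 ± 0.37 (edgeR, unadjusted p = 0.0208). Tnfrsf9 in macrophages was read at 0.0273, 0.0425, 0.0931 and 0.684, a difference of 3.38 ± 0.65 (adjusted p = 0.12), and with run as a replicate block it passed (3.30 ± 0.49, adjusted p = 2.95e-08), as it did without any 1 of the other 3 tumors. The Lyve1CreCsf1rfl/fl run 2 tumor decided this value: of its 30 UMIs in macrophages, 27 came from 1 of 69 cells, which held no Klrb1c UMI and was not marked as a doublet. Without this tumor the difference was 1.48 ± 0.99 (adjusted p = 0.999).

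The difference of the genotype effect between regulatory and CD8 T cells was tested directly, and 0 of 10 members were called, where 0.076% of 10526 genes were. Tnfrsf18 (-0.42 ± 0.13, unadjusted p = 0.00372 in edgeR) and Tnfrsf4 (-0.36 ± 0.16, 0.0294) had an unadjusted p under 0.05, and DESeq2 called 0. Both were called when the Csf1rfl/fl run 2 tumor was left out (-0.61, adjusted p = 0.039, and -0.67, 0.0141).

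The runs divided the tumors more often than the genotypes did. Each member was counted in each type where it averaged at least 0.1 UMIs per 10000. Both tumors of one run were above both of the other in 42 of 74 cases (56.8%, 14.9% with run 1 above and 41.9% with run 2 above). Over all genes and types this share was 53.7% (15.6% and 38.2%), so the members were near it. Both tumors of a genotype were above both of the other in 11 of 74 (14.9%, against 23.3%). Direction by run differed among the genes. Tnfrsf4 and Tnfrsf18 were higher in run 1 wherever the runs did not overlap, in 3 of 5 and 5 of 10 types, whereas Cd28 was higher in run 2 in 5 of 5 types, Icos in 4 of 5, Cd27 in 4 of 6 and Cd80 in 6 of 11. Cd86 was higher in run 2 in 5 of 12 types and in run 1 in 2, and Cd40 in 5 of 11 and in 1. A run here holds its own tumors and its own libraries, and these cannot be told apart.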

How the data were processed

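Leukocytes from 4 tumors were sequenced in 2 Chromium runs with 3' libraries. The authors mapped reads to mm10 with Cell Ranger 6.0.1, processed them in Seurat and deposited UMI counts per gene and cell barcode without normalization, and hashtag counts likewise. They also deposited whole-number scores, corrected by SCTransform, which were used here only for the names of the 28429 cells they kept of 53361 barcodes. Each cell was given to the tumor whose hashtag was higher in its run. How reads of overlapping genes were counted can alter single values.

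Cells were gated on UMIs of lineage transcripts: for T cells at least 2 of Cd3d, Cd3e and Cd3g with 1 of Cd8a or Cd8b1, of Cd4 and Foxp3, of Cd4 alone or of Trdc. NK cells needed 3 of Klrb1c, Ncr1, Klre1 and Gzma, neutrophils 20 of S100a8 and S100a9, macrophages 5 of C1qa, C1qb and C1qc with Adgre1 or Csf1r, and monocytes 5 of Ly6c2 and Ccr2 and 5 of Lyz2. Xcr1 dendritic cells needed 2 of Xcr1 and Clec9a, Cd209a dendritic cells 2 of Cd209a and Clec10a, mature dendritic cells 5 of Ccr7, Fscn1 and Ccl22, and plasmacytoid dendritic cells 3 of Siglech and Ccr9. Cells with markers of another lineage were left out, and types with under 10 cells in a tumor were not tested. Scrublet in scanpy 1.11.5 (expected rate 0.2) marked 12.5% to 25.5% of cells by tumor as doublets, which were kept in the main values.

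UMIs were summed per tumor and type and tested in R 4.3.3 with the quasi-likelihood test of edgeR 4.0.16 (TMM, filterByExpr), with Benjamini-Hochberg adjustment over all genes tested and a threshold of 0.05. Cell types were compared with the tumor as a block, and genotypes, 2 tumors each, without a block. Tumors of the same number shared a run per the labels, and in each of 12 types their deviations from genotype means correlated (r = 0.253 to 0.706), so the numbers pair the tumors. The scripts were checked on simulated data with changes planted in genes of ample counts. Between genotypes in regulatory T cells, 33% of planted changes of 1 on the log2 scale were recovered and 97% of those of 2. In regulatory against CD8 T cells 90% and 100% were. A lack of calls between genotypes therefore does not exclude changes of 1 on the log2 scale. Alternatives were DESeq2 1.42.0, other size factors, no filter, the other block, a stricter gate, no doublets, a hashtag ratio of 3 and leaving out each tumor. Shares of cells carry 95% exact binomial limits, 3 counts limiting a share of 0. The members and lists were chosen with earlier results of these data known. Named are all 10 members, 6 partner genes (Tnfsf4, Tnfsf9, Tnfsf18, Icosl, Cd70 and Ctla4), up to 3 genes of each list with the largest called change in 4 of 4 tumors, and the genes with the highest r for each member. Tables and plots were made in Python 3.11.15 (pandas 2.3.3, scipy 1.17.1, numpy 2.4.6, matplotlib 3.10.9).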

Additional observations from a re-analysis of the deposited data

Results flagged for a closer look

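In 4 of the 74 sets of 4 tumors examined, 1 tumor lay far from the other 3. Chance gives this in about 1 in 20 sets, so a count of this size is near what chance gives. Tnfrsf9 in macrophages was highest in the Lyve1CreCsf1rfl/fl run 2 tumor at 0.684 UMIs per 10000, against 0.0273 to 0.0931 in the others, and 27 of its 30 UMIs were in 1 cell. Tnfrsf18 in CD8 T cells was highest in the Lyve1CreCsf1rfl/fl run 1 tumor at 2.50, against 1.62 to 1.77. Cd40 in macrophages was lowest in the Csf1rfl/fl run 1 tumor at 0.968, against 1.17 to 1.21. Cd40 in neutrophils was highest in the same tumor at 0.299, against 0.256 to 0.257.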

How the results depend on the processing

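The type with the highest mean level stayed the same under each alternative run for levels for the members other than Cd28. Cd28, at like levels in the CD4 gates, was highest in Foxp3-negative CD4 T cells when either Lyve1CreCsf1rfl/fl tumor was left out. Levels or shares in the highest types moved by more than the SD over tumors in 9 cases under the stricter gate and in 2 without doublets. Shares fell on thinning to 2000 UMIs in 10 of 10. Between genotypes 1 test, Tnfrsf9 in macrophages, was called with the replicate block and with no filter on low counts, and 0 to 1 without 1 tumor: 0 without the Lyve1CreCsf1rfl/fl run 2 tumor and 1 without any other. The block changed no other call among the 75 tests between genotypes. Against Foxp3-negative CD4 T cells 7 calls became 1 without the replicate block and 1 under the stricter gate, where Cd40lg and Cd86 were not tested. Against CD8 T cells 8 became 4 under the stricter gate, where Cd40lg was not tested. For macrophages against monocytes 1 call became 2 with no filter, 0 under the stricter gate, 0 without the block and 1 to 2 without 1 tumor (2 without the Csf1rfl/fl run 2 tumor). For cycling regulatory T cells 8 became 5 in DESeq2 and 5 without the block. For cycling CD8 T cells 6 became 1 in DESeq2, 3 under the stricter gate, where Cd40 was not tested, 2 without the block and 3 to 4 without 1 tumor (3 without the Lyve1CreCsf1rfl/fl run 1 tumor). The difference of genotype effects had 0 to 2 calls without 1 tumor. The cause was not tested. The stricter gate left too few cells for mature against Xcr1 dendritic cells and for cycling regulatory T cells.

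Some directions turned. Between genotypes in regulatory T cells, leaving out 1 tumor gave -0.66 to 0.21 for Tnfrsf4, -0.16 to 0.16 for Tnfrsf9, -0.62 to 0.22 for Tnfrsf18 and -0.27 to 0.13 for Cd28. In CD8 T cells it gave -0.081 to 0.11 for Cd27, -0.066 to 0.37 for Tnfrsf4, -0.075 to 0.31 for Tnfrsf9, -0.19 to 0.64 for Tnfrsf18, -0.093 to 0.63 for Icos and -0.23 to 0.12 for Cd28. In mature dendritic cells it gave -0.21 to 0.43 for Cd80, -0.0062 to 0.15 for Cd86 and -0.21 to 0.14 for Cd40. These fits had no block for run, and leaving out 1 tumor left 1 genotype with 1 run, so the part of run in these turns was not tested. Within runs 1 and 2, the log2 ratios of genotypes in regulatory T cells were -0.13 and -0.26 for Tnfrsf4 and -0.10 and -0.24 for Tnfrsf18. Those of Tnfrsf9 (0.17 and -0.16) and Cd28 (-0.18 and 0.07) differed in sign. In mature dendritic cells the ratios within runs 1 and 2 were 0.13 and 0.056 for Cd80, of the same sign. Those of Cd86 (-0.036 and 0.18) and Cd40 (-0.20 and 0.14) differed in sign there. Without doublets Tnfrsf9 in regulatory T cells was -0.031, Cd27 in CD8 T cells -0.057, Cd40lg in Foxp3-negative CD4 T cells -0.33 and Cd86 in mature dendritic cells -0.0070. Under the stricter gate Cd27 was -0.062 in CD8 and 0.12 in regulatory T cells, and Cd40 in mature dendritic cells 0.16.

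Between cell types, regulatory against Foxp3-negative CD4 T cells gave 0.0090 for Cd28 with no filter, and, without 1 tumor, -0.060 to 0.0063 for Cd28 and -0.13 to 0.17 for Cd80. Without 1 tumor Cd40 gave -0.13 to 0.60 in regulatory against CD8 T cells, and in macrophages against monocytes Tnfrsf9 gave -0.28 (without the Lyve1CreCsf1rfl/fl run 2 tumor) to 1.48 and Cd40 -0.070 to 0.054. Under the stricter gate Cd40 was -0.013 in CD8 T against NK cells, and in cycling CD8 T cells Tnfrsf4 was -0.13 and Tnfrsf9 -0.0094.

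With 2 tumors per genotype an exact permutation test cannot go below p = 0.33, and separate mice, not cells, set the errors. Depth limits Cd40lg and the T cell genes in myeloid cells, where a few UMIs decide a value.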

Other observations

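Gamma delta T cells, 205 in all, held Tnfrsf9 at 1.38 to 2.70 UMIs per 10000, Tnfrsf18 at 0.940 to 1.74, Cd27 at 0.940 to 1.62 and Cd28 at 0.392 to 1.35, while Tnfrsf4 stood at 0 to 0.339 and Icos at 0.157 to 0.804. Plasmacytoid dendritic cells, 465 in all, held Tnfrsf18 at 0.197 to 0.241, about the level of neutrophils (0.199 to 0.257), and Cd40 at 0.241 to 0.618. Cd80 UMIs were found in regulatory T cells at 0.208 to 0.348, a range that overlapped that of macrophages (0.168 to 0.366).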
